A study of Mus musculus with 4 samples.

Results

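The azurophil granule enzymes described here are the products of 5 genes, Elane (ENSMUSG00000020125), Mpo (ENSMUSG00000009350), Prtn3 (ENSMUSG00000057729), Ctsg (ENSMUSG00000040314) and Prss57 (ENSMUSG00000020323), chosen by symbol among the 32285 genes of the deposited spleen matrices. Each of the 5 symbols matched 1 gene. They were followed in single spleen cells of 4 female C57BL/6J mice aged 12 and 16 months. Of these mice, 2 were wild type (WT) and 2 were heterozygous for D3TA, a CRISPR/Cas9 knock-in of Ccnd3 that replaces threonine 283 of cyclin D3 by alanine. The allele is constitutive and present in every cell, so a value from a D3TA library cannot be assigned to an effect within one cell type. The series states that knock-in mice of this age have severe signs of a myeloproliferative neoplasm, an overproduction of myeloid cells. Each mouse gave 1 library, and which mouse had which age is not given in the sources used here. The comparison asked of these genes was where in the spleen their RNA lay and how its level differed between the genotypes.

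Azurophil, or primary, granules are the first granules that neutrophils make, at the promyelocyte stage in the bone marrow. Their enzymes are stored for the mature cell, and the genes are then switched off, so that blood neutrophils carry the proteins with little of the RNA. Elane encodes neutrophil elastase, Prtn3 proteinase 3, Ctsg cathepsin G and Prss57 an arginine-specific relative of these serine proteases. Mpo encodes myeloperoxidase, a heme enzyme that makes hypochlorous acid. Monocyte precursors and basophil and mast cell precursors are known to use some of these genes, and lymphocytes do not, so the level in lymphocytes serves as the level given by RNA free in the droplets.

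In the GENCODE annotation of GRCm38, Prtn3, Elane and Prss57 lay on chromosome 10. Prtn3 (chr10:79874476-79883174, plus strand) ended 3.1 kb before Elane (chr10:79886247-79888215, plus strand), and Prss57 (chr10:79781474-79790961, minus strand) lay 83.5 kb from Prtn3. Mpo lay at chr11:87793581-87804413 on the plus strand and Ctsg at chr14:56099881-56102574 on the minus strand. Promoter sequences from RefSeq (GRCm38.p6) were at hand for 4 of the 5 genes and are printed because these 4 genes rose together in the whole spleen (below). The stretches lie upstream of the RefSeq start and of any GENCODE start before it of a protein-coding transcript tagged as basic. They lie at chr10:79886062-79886246 for Elane, chr10:79879417-79879613 for Prtn3, chr11:87793534-87793580 for Mpo and chr14:56102575-56102824 for Ctsg. The stretch of Prtn3 lies inside the span of its GENCODE gene record given above. Each is written 5′ to 3′ on the strand of its gene, and capitals mark the letters AGGAAGT, the core bound by the myeloid factor PU.1.
Elane: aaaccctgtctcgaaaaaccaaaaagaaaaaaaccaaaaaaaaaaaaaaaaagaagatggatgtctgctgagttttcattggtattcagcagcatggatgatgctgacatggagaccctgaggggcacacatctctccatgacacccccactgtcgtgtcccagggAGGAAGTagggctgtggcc
Prtn3: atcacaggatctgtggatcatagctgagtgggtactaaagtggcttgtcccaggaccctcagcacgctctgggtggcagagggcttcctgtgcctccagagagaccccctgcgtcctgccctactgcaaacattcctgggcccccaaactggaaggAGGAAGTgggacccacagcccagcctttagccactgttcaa
Mpo: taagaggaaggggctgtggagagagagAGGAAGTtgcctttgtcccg
Ctsg: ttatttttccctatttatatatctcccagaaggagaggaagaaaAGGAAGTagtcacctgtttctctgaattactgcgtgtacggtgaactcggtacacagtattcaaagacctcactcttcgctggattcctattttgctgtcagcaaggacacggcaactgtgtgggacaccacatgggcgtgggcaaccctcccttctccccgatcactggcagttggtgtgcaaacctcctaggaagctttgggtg
AGGAAGT stood in the 250 bases upstream of all 4 starts, against 7.69% of 32851 promoters searched on both strands. The longer letters GAGGAAGT, which contain the first motif, stood in 3 of the 4, all but Ctsg, against 2.44%. AACNG, the core of the MYB motif, stood in all 4, but also in 74.2% of all promoters. TTNNGNAA, letters of the C/EBP motif, stood in 0 of 4 against 36.8%, and TATAAA stood in Ctsg alone against 12.4%. The motifs were chosen after the sequences had been seen, and a match is a description of letters, not of binding.

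The analysis used 52330 cells, 7679 to 22286 per library. Kept cells had a median of 7559 to 7919 UMIs (unique molecular identifiers, counted RNA molecules) in 3 libraries and of 1393 in WT replicate 1, which stood apart as shallow. Pairs of libraries shared 20 to 96 cell barcodes. Levels are given as CPM, the UMIs of a gene per 1000000 UMIs of all genes summed over the cells of a class in 1 library. Clusters of cells took a class name from marker genes, none of which was 1 of the 5 genes, and the 5 genes were kept out of the clustering. Exact permutation over 2 and 2 mice gives no p under 0.333. Intervals of counts and shares are exact at 95% and cover counting error only.

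Across the whole spleen, all 5 genes were higher in both D3TA libraries than in both WT libraries. Elane stood at 9.34 and 3.35 CPM in WT replicates 1 and 2, and at 764 and 410.5 CPM in D3TA replicates 1 and 2. Prtn3 stood at 10.2 and 4.00 CPM in WT and at 728 and 341 CPM in D3TA. The groups were far apart for both proteases, and within each genotype replicate 1 was the higher. Mpo stood at 8.12 and 1.07 CPM in WT and at 348 and 319 CPM in D3TA, so that the ratio between replicates was larger in WT than in D3TA. Ctsg stood at 3.29 and 0.884 CPM in WT and at 218.5 and 93.4 CPM in D3TA. Prss57 was the least abundant, at 0.683 and 0.313 CPM in WT and at 25.6 and 14.6 CPM in D3TA.

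By edgeR's quasi-likelihood test with Benjamini-Hochberg adjustment over 18344 genes, 5 of the 5 genes rose, where 5.7% of all genes tested were called higher and 6.08% in either direction. Elane rose by 6.64 on the log2 scale (SE 0.73, adjusted p = 0.0132), Prtn3 by 6.35 (SE 0.73, adjusted p = 0.0148) and Ctsg by 6.34 (SE 0.86, adjusted p = 0.0208). Mpo rose by 6.27 (SE 1.03, adjusted p = 0.0347 by edgeR), and without D3TA replicate 1 its adjusted p was 0.0593. Prss57 rose by 5.43 (SE 0.55, adjusted p = 0.0115 by edgeR). The median log2 difference of the 5 genes was 6.34, beside -0.0031 over all genes tested. Both D3TA libraries stood above both WT libraries for 25.1% of all genes tested. In RNA summed over a spleen, more cells of a type and more RNA per cell cannot be told apart, and the comparisons within classes below use the same 4 libraries.

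**Figure D1:**
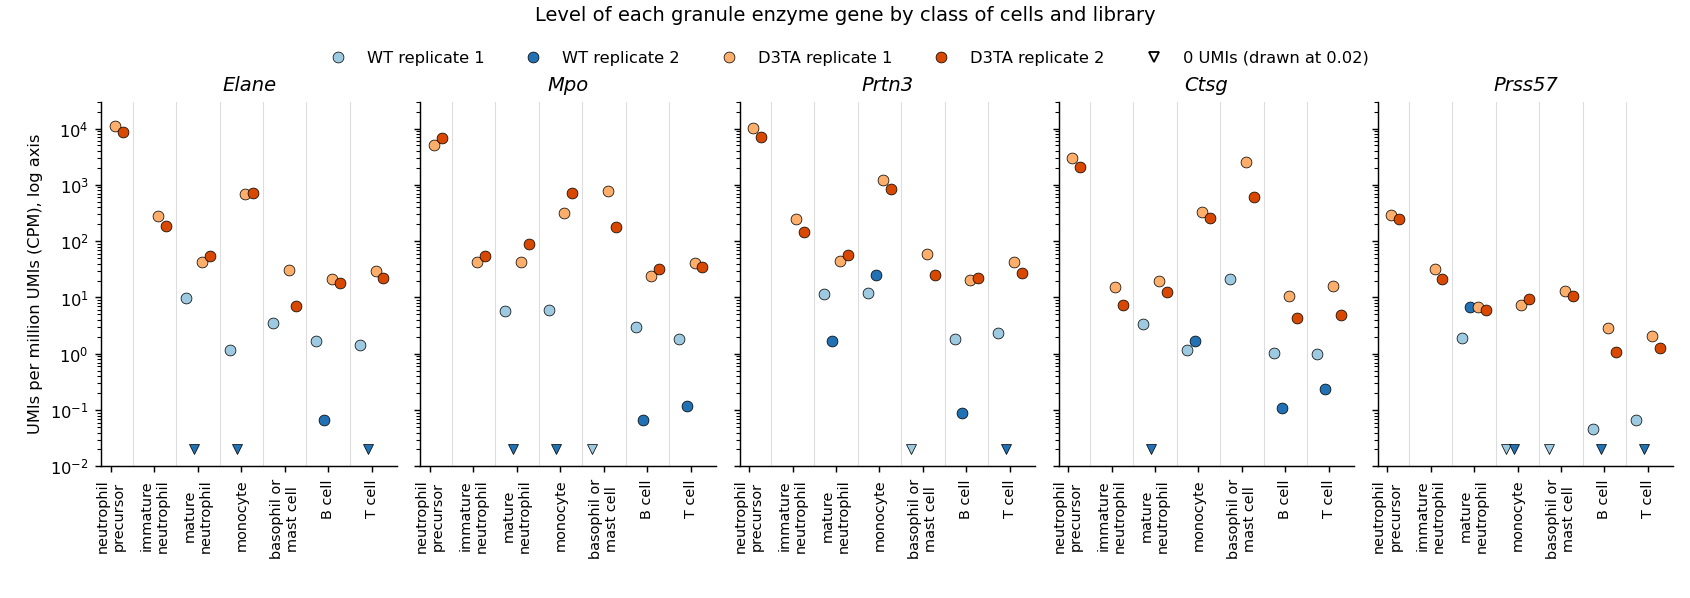
Level of each of the 5 genes in CPM (log axis) by class of cells, with 1 point per library of at least 20 cells of the class, and a triangle at 0.02 where a library held 0 UMIs. Precursor-like cells of both D3TA libraries hold the highest level of every gene, Ctsg is next highest in basophil- or mast cell-like cells, and no WT point drawn lies above 25.2 CPM. The unnamed neutrophil clusters between stages are not drawn; in WT replicate 1 they held 68 cells at 10340 CPM of the 5 genes together.

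The RNA lay in few cells. In D3TA replicate 1, 207 neutrophil precursor-like cells, led by Ms4a3, Gstm1 and Fcnb, held 79.1% of all UMIs of the 5 genes, and in D3TA replicate 2 the share was 82.1% in 111 cells. Immature neutrophil-like cells held 5.89% and 5.62%, and monocyte-like cells held 5.39% and 4.59%. In WT replicate 1 no cell fell in the precursor-like class, and 75.5% of these UMIs lay in 1 cluster between stages, described below. In WT replicate 2, 77.4% lay in 16 immature neutrophil-like cells and 13.01% in a single precursor-like cell.

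**Figure D2:**
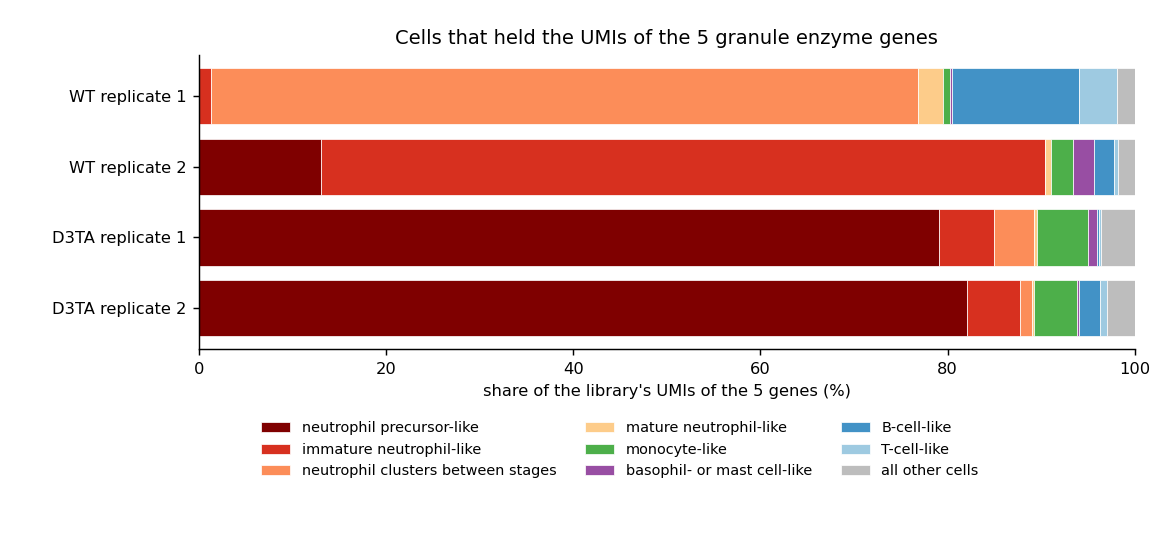
Share of each library's UMIs of the 5 genes (horizontal axis, %) held by each class of cells (colours), 1 bar per library. Precursor-like cells hold 79.1% and 82.1% in the D3TA libraries, and neutrophil-lineage cells of other classes hold most in the WT libraries.

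Cells with at least 10 UMIs of the 5 genes, counted without any clustering, made up 0.1795% of cells (40 of 22286) in the first WT library and 0.0651% (5 of 7679) in the second. The share was 4.78% (564 of 11792) in D3TA replicate 1 and 2.00% (211 of 10573) in D3TA replicate 2. Both D3TA libraries thus stood above both WT libraries, by a mean of 3.27 percentage points (exact permutation test, two-sided, p = 0.333, the smallest possible), or 1.87 points without D3TA replicate 1. WT replicate 1 stood apart in depth, since such cells had a median of 28073 and 31377 UMIs of all genes in D3TA, 29621 in WT replicate 2 and 2769 in WT replicate 1. None of the 40 and 5 such WT cells shared its barcode with a cell of another library.

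Neutrophil precursor-like cells held the highest level of each of the 5 genes. Elane stood at 11210 and 8804 CPM in D3TA replicates 1 and 2, Prtn3 at 10340 and 7078 CPM and Mpo at 5117 and 6690 CPM. Ctsg stood at 3052 and 2040 CPM and Prss57 at 292 and 244 CPM. Mpo alone was higher in D3TA replicate 2, and the other 4 genes were higher in D3TA replicate 1. Together the 5 genes made up 3.00% and 2.49% of all UMIs in these cells, and up to 6.18% in a single cell. The median cell held 1000 of their UMIs in D3TA replicate 1 and 805 in D3TA replicate 2, and the tenth percentile was 220 and 212. With each cell thinned to 1000 UMIs of all genes, Elane was found in 94.2% and 94.6% of precursor-like cells, Prtn3 in 96.1% and 94.6% and Mpo in 88.4% and 91.9%. Ctsg was found in 72.0% and 58.6% and Prss57 in 20.8% and 18.9%, where without thinning each was found in 94.6% to 96.1% and 94.6% to 95.2%. No test compared this class between genotypes, because WT held 0 and 1 such cells. That cell of WT replicate 2 held 2 Elane, 8 Mpo, 48 Prtn3, 34 Ctsg and 0 Prss57 UMIs among 58468.

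The RNA fell through the neutrophil-lineage clusters in an order that differed between the genes. Clusters are ordered here by their leading marker genes, from precursor-like to mature, in the D3TA libraries; WT libraries had 0 to 6 cells in each of these clusters but the mature cluster 27. Cluster 44, between the classes and led by Fcnb and Ms4a3 (34 and 16 cells), held 4696 and 1348 CPM of Elane and 699 and 196 CPM of Ctsg. In cluster 40, led by Fcnb and Chil3 (140 and 66 immature neutrophil-like cells), Elane stood at 1136 and 1253 CPM and Prtn3 at 788 and 656 CPM. In the same cells Mpo stood at 105 and 182 CPM and Ctsg at 31.7 and 26.1 CPM. Ctsg and Mpo had therefore dropped further than Elane, Prtn3 and Prss57 by this point. As a share of the precursor-like level, cluster 40 kept 10.1% and 14.2% of Elane, 7.62% and 9.27% of Prtn3 and 15.5% and 18.2% of Prss57, but 2.06% and 2.72% of Mpo and 1.04% and 1.28% of Ctsg. In cluster 29, led by Chil3 and with 3 histone genes among its 10 leading genes (577 and 363 cells), Prss57 kept 13.03% and 10.7% and Elane 2.01% and 1.05%. Ctsg stood at 11.9 and 6.10 CPM and Mpo at 31.2 and 36.6 CPM there. Lymphocytes of the same libraries held similar levels, 12.8 and 4.51 CPM of Ctsg and 30.5 and 32.7 CPM of Mpo. Depth differed, with a median of 18809 UMIs per cell in cluster 29 over all libraries and of 6972 and 7389 in lymphocytes. Whether Ctsg and Mpo exceeded the background in cluster 29 was not tested. In cluster 41, led by the mitotic genes Cenpf and Ube2c (120 and 63 cells), Prss57 kept 16.8% and 12.7%, and the other 4 genes kept 2.07% or less. In the later clusters Elane stood at 22.4 CPM in cluster 30 of D3TA replicate 1 and at 18.9 CPM in cluster 31 of D3TA replicate 2, both with Ltf among their leading genes, and at 54.8 and 55.9 CPM in the mature cluster 27, led by Il1b. B- and T-cell-like cells together held 24.4 and 18.9 CPM of Elane. Cells of cluster 27 were shallower, with a median of 3617 UMIs over all libraries. CPM there and in lymphocytes is thus not set side by side at equal depth. Prss57 took another course, at 13.6 and 8.78 CPM in clusters 30 and 31 and at 7.02 and 7.10 CPM in cluster 27, against 2.55 and 1.11 CPM in lymphocytes. Other lineage clusters, among them 32, 37, 39, 42 and 46, were left out of this order, and some stood higher than it would place them. The 5 genes made up 0.070% and 0.060% of UMIs in cluster 37 and 0.0515% and 0.109% in the mature cluster 42. In cluster 29 they made up 0.0542% and 0.0281%. Clusters 37 and 42 were shallow, at medians of 1170 and 769 UMIs. Cluster 46 stood at 0.241% in D3TA replicate 2. These values are descriptions of clusters within 2 libraries, with no test.

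**Figure D3:**
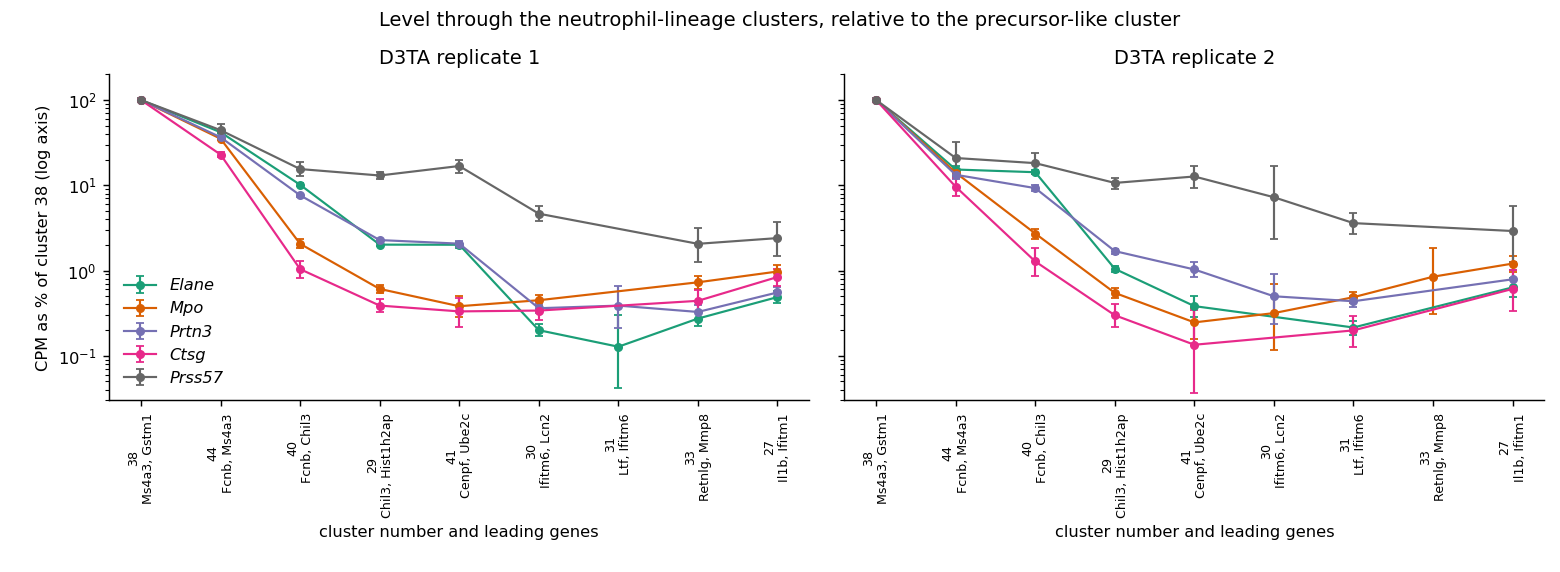
Level of each of the 5 genes as a percentage of its level in the precursor-like cluster 38 (vertical log axis), through neutrophil-lineage clusters ordered from precursor-like to mature, in D3TA replicates 1 and 2, with 95% counting intervals. Points with 3 or fewer UMIs of the gene or under 15 cells are left out. Other lineage clusters, among them 32, 37, 39, 42 and 46, are not drawn. Ctsg and Mpo are near 1% to 3% by cluster 40, where Prss57 is still at 15.5% and 18.2%.

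The makeup of the pool shifted with these unequal drops. Mpo made up 17.05% and 26.9% of the UMIs of the 5 genes in precursor-like cells and 6.81% and 13.2% in immature neutrophil-like cells. Ctsg went from 10.2% and 8.21% to 2.52% and 1.79%. Elane went the other way, from 37.4% and 35.4% to 45.6% and 44.5%, and Prss57 from 0.974% and 0.981% to 5.28% and 5.20%. Both D3TA libraries moved in the same direction for each of these genes. The libraries still differed from each other within one class, since the ratio of Mpo to Elane UMIs in precursor-like cells was 0.456 in D3TA replicate 1 and 0.760 in D3TA replicate 2.

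**Figure D4:**
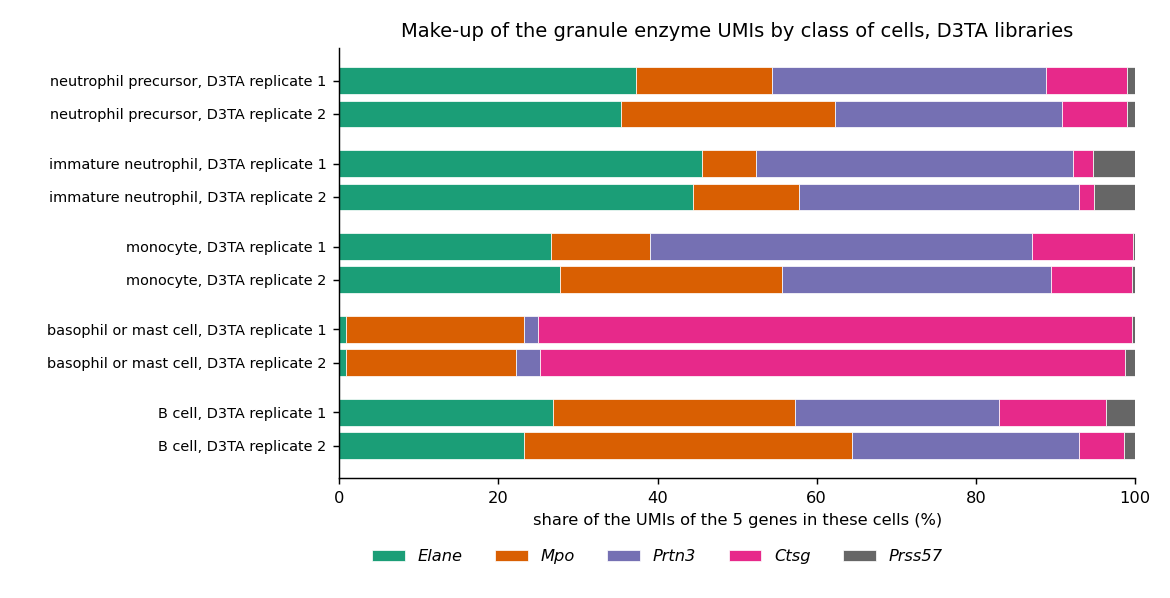
Makeup of the UMIs of the 5 genes (horizontal axis, %) in each class of cells of the 2 D3TA libraries, 1 stacked bar per class and library and 1 colour per gene. Elane and Prtn3 fill most of each neutrophil bar, Prtn3 is the widest band in monocyte-like cells, and Ctsg fills 74.6% and 73.5% of the basophil- or mast cell-like bars.

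Cells that held one of these transcripts often held others, with shares that differed by pair. Among D3TA cells with at least 3 Elane UMIs (607 and 243), 79.4% in each library also had at least 3 Prtn3 UMIs, 52.6% and 61.7% had 3 of Mpo and 43.8% and 52.3% had 3 of Ctsg. Prss57 reached 3 UMIs in 38.9% and 47.7% of them. Among cells with at least 3 Prtn3 UMIs (791 and 296), 60.9% and 65.2% had 3 of Elane and 41.3% and 52.4% had 3 of Mpo. Ctsg reached 3 UMIs in 35.5% and 44.6% of these and Prss57 in 31.7% and 39.5%. Of the cells with at least 3 Prss57 UMIs (276 and 129), 90.9% and 90.7% also held 3 of Prtn3. Such cells were deep, and the shares were not thinned.

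Immature neutrophil-like cells numbered 9 and 16 in WT and 1696 and 1386 in D3TA, under the 20 cells per library set for a test. In the D3TA libraries Elane stood at 282 and 184 CPM in this class, Prtn3 at 246 and 146 CPM and Mpo at 42.1 and 54.7 CPM. Ctsg stood at 15.6 and 7.41 CPM and Prss57 at 32.7 and 21.5 CPM, so that the rarest gene of precursor-like cells exceeded Ctsg here. The 9 cells of WT replicate 1 held 2 Elane, 0 Mpo, 15 Prtn3, 0 Ctsg and 15 Prss57 UMIs, or 18.1 CPM of Elane and 136 CPM each of Prtn3 and Prss57. The 16 cells of WT replicate 2 held 240 Elane, 64 Mpo, 220 Prtn3, 10 Ctsg and 13 Prss57 UMIs, most of them in 2 cells. At 714 CPM of Elane, 190 of Mpo, 654 of Prtn3, 29.7 of Ctsg and 38.7 of Prss57, this WT library stood above both D3TA libraries for all 5 genes. Over the group totals the ratio of D3TA to WT was 0.448 for Elane (counting interval 0.394 to 0.511), opposite in direction to the whole spleen.

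In WT replicate 1 the transcripts lay in cluster 43, which held 67 cells of this library and 1 of D3TA replicate 1 and took no class name. Of the 67, 30 cells with at least 10 UMIs of the 5 genes held all 1850 such UMIs, at 6363 CPM of Elane, 6459 of Prtn3, 4732 of Mpo, 1886 of Ctsg and 277 of Prss57. Those cells were picked by these UMIs, so their levels are in part set by the choice. They also held 1226 CPM of Ms4a3 and 245 CPM of Fcnb, both precursor markers, and 0 UMIs of Cxcr2, Il1b, Cxcl2 and Ptgs2, genes of mature or activated neutrophils. The other 37 cells of the cluster held 0 UMIs of the 5 genes and of Ms4a3 and Fcnb, with 825 CPM of Il1b and 399 CPM of Cxcr2. Cluster 43 was thus a mixture of cells at different stages, and the count of 0 precursor-like cells in WT replicate 1 is a count of a class and not of cells with these transcripts.

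Neutrophil-lineage cells made up 5.52% and 2.06% of cells in WT and 32.9% and 21.3% in D3TA. Summed over this lineage, Elane stood at 264 and 237 CPM in WT and at 2009 and 1590 CPM in D3TA. Mpo stood at 194 and 70.6 CPM in WT and at 867 and 1154 CPM in D3TA. Prtn3 stood at 275 and 264 CPM in WT and at 1836 and 1276 CPM in D3TA. The groups did not overlap for these 3 genes, nor for Ctsg (78.4 and 43.2 against 502 and 343 CPM) or Prss57 (19.2 and 16.7 against 68.0 and 55.8 CPM). Both D3TA libraries stood above both WT libraries for 20.9% of all genes tested. By edgeR's quasi-likelihood test over 12858 genes all 5 genes rose, where 4.57% of all genes tested were called higher and 12.1% in either direction. The log2 difference was 3.21 (SE 0.51) for Elane, 3.30 (SE 0.52) for Mpo, 2.90 (SE 0.50) for Prtn3, 3.18 (SE 0.44) for Ctsg and 2.15 (SE 0.34) for Prss57, with edgeR adjusted p from 0.0164 to 0.0187. Without D3TA replicate 1 or without D3TA replicate 2, edgeR called 0 of the 5 genes and 0 genes in all, with adjusted p of the 5 genes from 0.110 to 0.134 and from 0.0582 to 0.0782. With doublets kept, edgeR called 3 of the 5, and at Leiden resolution 0.5 or with the 5 genes among the clustering genes 2 of the 5. The named stages within the lineage differed between the genotypes as well. Cells of the precursor-like class made up 0% and 0.633% of the lineage in WT and 5.33% and 4.93% in D3TA. The 0% leaves out the 30 cells of cluster 43 in WT replicate 1 that held precursor markers, since that cluster took no class name. The D3TA shares leave out cluster 44 (34 and 16 cells), also without a class name. The part of stages in the difference was not tested.

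Monocyte-like cells (284 and 58 in WT, 278 and 141 in D3TA), all from 1 cluster led by monocyte markers, were the second class with a called difference. Prtn3 stood at 11.9 and 25.2 CPM in WT and at 1240 and 856 CPM in D3TA, the highest of the 5 genes in each of the 4 libraries. Elane stood at 1.19 and 0 CPM in WT and at 688 and 705 CPM in D3TA. Mpo stood at 5.96 and 0 CPM in WT and at 319 and 706 CPM in D3TA. Ctsg stood at 1.19 and 1.68 CPM in WT and at 326 and 259 CPM in D3TA, and Prss57 at 0 in both WT libraries and at 7.35 and 9.50 CPM in D3TA. The WT levels rest on 1 Elane, 5 Mpo, 25 Prtn3, 2 Ctsg and 0 Prss57 UMIs in the 2 libraries together. By edgeR's quasi-likelihood test all 5 genes rose, where 9.47% of 9646 genes tested were called higher and 16.2% in either direction, and where both D3TA libraries stood above both WT libraries for 30.7%. The log2 difference was 5.91 for Prtn3 (SE 0.46, edgeR adjusted p = 3.89e-06) and 7.18 for Mpo (SE 0.63, edgeR adjusted p = 7.19e-06). Over the group totals, D3TA exceeded WT by 994 times for Elane (counting interval 178 to 39260, edgeR adjusted p = 1.46e-06) and by 220 times for Ctsg (60.9 to 1818, edgeR adjusted p = 2.05e-06). Prss57 was at least 3.81-fold higher against 3 UMIs over the WT group (edgeR adjusted p = 0.00969), and without WT replicate 1 its adjusted p was 0.0667.

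These transcripts were uneven among monocyte-like cells. In D3TA, 84 of 278 and 20 of 141 cells had at least 10 UMIs of the 5 genes and held 96.8% and 97.5% of the UMIs of these genes in the class. Their median depth was 30455 and 32923 UMIs, beside 12684 and 11507 in the other monocyte-like cells. Ms4a3 stood at 159 and 254 CPM in them and at 10.7 and 2.69 CPM in the others. Fcnb was also higher in them, at 77.7 and 139 CPM against 27.4 and 6.05 CPM. For Camp the D3TA libraries went opposite ways, at 305 and 2709 CPM in them and 2136 and 190 CPM in the others. So did Cebpe, at 14.95 and 42.8 CPM against 30.3 and 9.42 CPM. Ltf was lower in them, at 71.8 and 46.9 CPM against 436 and 61.2 CPM. Ly6c2, a surface protein of classical monocytes, stood at 2710 and 2633 CPM against 2100 and 1351 CPM, and Irf8, a factor of monocyte precursors, at 310 and 501 CPM against 206 and 248 CPM. Klf4 was also higher in them, at 268 and 276 CPM against 169 and 237.5 CPM. Ccr2, the receptor by which monocytes leave the marrow, was lower at 540 and 409 CPM against 1162 and 1000 CPM, and Fn1 at 325 and 540 CPM against 690 and 1657 CPM. The class marker Csf1r was lower too, at 91.2 and 181 CPM against 233 and 353 CPM, and so was Ly86, at 343 and 290 CPM against 475 and 513 CPM. Gfi1, a factor of the granulocyte branch, stood at 0.729 and 6.90 CPM in them (2 and 5 UMIs) and at 3.33 and 2.02 CPM in the others (9 and 3 UMIs). The cell cycle gene Mki67 stood at 667 and 774 CPM in them and at 568 and 583 CPM in the others, while the class as a whole held 4.77 and 11.8 CPM in the WT libraries. The share of cells with Mki67 differed more, at 100% and 100% of them and 52.1% and 39.7% of the others. These shares were not thinned to equal depth. The part of depth, of the cell cycle and of droplets with more than 1 cell in the difference between genotypes was not tested. With cells thinned to 1000 UMIs, Prtn3 was found in 1.48% and 0% of WT monocyte-like cells and in 27.3% and 13.97% of those of D3TA (unthinned 3.17%, 15.5%, 70.9% and 39.7%). In B-cell-like cells, which should lack it, the thinned share was 0.318% and 0% in WT and 3.22% and 2.68% in D3TA.

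Basophil- or mast cell-like cells held mainly 2 of the 5 transcripts. Ctsg stood at 2580 and 608 CPM in D3TA (74 and 26 cells) and at 21.2 CPM in WT replicate 1 (120 cells). Mpo stood at 775 and 177 CPM in D3TA and at 0 UMIs in WT replicate 1. The 1 such cell of WT replicate 2 held 13 Ctsg and 3 Mpo UMIs, so no test was made. Elane, which led in the neutrophil precursors, held 23 and 2 UMIs in D3TA. Ctsg exceeded Mpo by 3.33 and 3.44 times in the 2 D3TA libraries and exceeded Elane by 85.6 and 86.0 times, whereas in precursor-like cells Ctsg stood at 0.596 and 0.305 of Mpo. The ratio of Ctsg to Mpo thus differed little between D3TA libraries whose levels differed. Within the class, Ctsg stood at 3634 and 1009 CPM in cluster 51, at 2955 and 1074 CPM in cluster 53 and at 399 and 70.7 CPM in cluster 48. WT replicate 1 had its cells in clusters 48, 49, 50 and 55, which held 32, 0, 1 and 0 cells of D3TA replicate 1 and 10, 0, 0 and 2 of D3TA replicate 2, so that the level of the class compares different clusters.

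Mature neutrophil-like cells held little of any of the 5 transcripts. Elane stood at 9.72 and 0 CPM in WT and at 41.9 and 53.8 CPM in D3TA, and Prtn3 at 11.7 and 1.72 CPM in WT and 44.7 and 56.0 CPM in D3TA. Mpo stood at 5.83 and 0 CPM in WT and at 43.2 and 88.5 CPM in D3TA. Ctsg stood at 3.40 and 0 CPM in WT and 19.6 and 12.5 CPM in D3TA, and Prss57 at 1.94 and 6.88 CPM in WT and 6.68 and 5.90 CPM in D3TA. The groups did not overlap for 4 genes, where both D3TA libraries stood above both WT libraries for 9.63% of all genes tested, and overlapped for Prss57. EdgeR's quasi-likelihood test called 0 of 8378 genes in either direction (percent called 0) and so 0 of the 5, with 1684 genes and 4 of the 5 at an unadjusted p under 0.05. The edgeR adjusted p was 0.0523 for Mpo and for Prtn3, 0.0531 for Elane, 0.0679 for Ctsg and 0.338 for Prss57, and DESeq2 called 4 of the 5. Under a stricter cell filter, which changed the cells in the class, the log2 difference of Elane was -1.545 and that of Mpo -0.84. The class lay in different clusters by library: 965 of the 1154 cells of WT replicate 1 were in cluster 28, which held 3 and 8 D3TA cells, and 559 cells of D3TA replicate 1 were in cluster 33, which held 0 WT cells. In cluster 28 a single cell of WT replicate 1 held 41 of the 59 UMIs of the 5 genes. In cluster 27, with 140 and 109 WT and 735 and 346 D3TA cells, Elane stood at 0 and 0 CPM in WT and 54.8 and 55.9 CPM in D3TA, and Prss57 at 7.18 and 9.33 CPM in WT and 7.02 and 7.10 CPM in D3TA. For comparison, B- and T-cell-like cells of the same D3TA libraries together held 24.4 and 18.9 CPM of Elane and 30.5 and 32.7 CPM of Mpo.

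Lymphocytes gave the background. In B-cell-like cells Elane stood at 1.71 and 0.0663 CPM in WT and at 21.1 and 17.96 CPM in D3TA, and Mpo at 3.03 and 0.0663 CPM in WT and 23.9 and 31.9 CPM in D3TA. Prtn3 stood at 1.85 and 0.0885 CPM in WT and at 20.1 and 22.1 CPM in D3TA. The 5 genes summed to 6.62 and 0.350 CPM in T-cell-like cells of WT and to 132 and 90.3 CPM in those of D3TA. WT replicate 1 had 4158 of its 5119 T-cell-like cells in cluster 2, which held 8 and 30 D3TA cells. Both D3TA libraries stood above both WT libraries for all 5 genes in both classes, as they did for 15.7% and 16.7% of all genes tested. EdgeR called 0 of 15200 genes in B-cell-like and 0 of 12936 in T-cell-like cells (percent called 0), hence 0 of the 5 in each, with 668 and 379 genes and all 5 of the set at an unadjusted p under 0.05. DESeq2 called 2 of the 5 in each. The log2 difference by edgeR in B-cell-like cells was 4.48 for Elane (SE 1.24, adjusted p = 0.989) and 4.21 for Mpo (SE 1.38, adjusted p = 0.989). Of the 12203 B-cell-like cells of WT replicate 1, 6334 lay in cluster 0, which held 24 to 514 cells of each other library, and 8 of those cells held 164 of the 279 UMIs of the 5 genes in that cluster. The background did not have the makeup of the precursors: the ratio of Mpo to Elane was 1.13 and 1.78 in B-cell-like cells of D3TA, against 0.456 and 0.760 in precursor-like cells. With cells thinned to 1000 UMIs, Elane was found in 2.88% and 1.96% of B-cell-like cells of D3TA (19.4% and 13.7% unthinned) and in 0.280% and 0.0196% of those of WT, beside 94.2% and 94.6% of precursor-like cells.

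**Figure D5:**
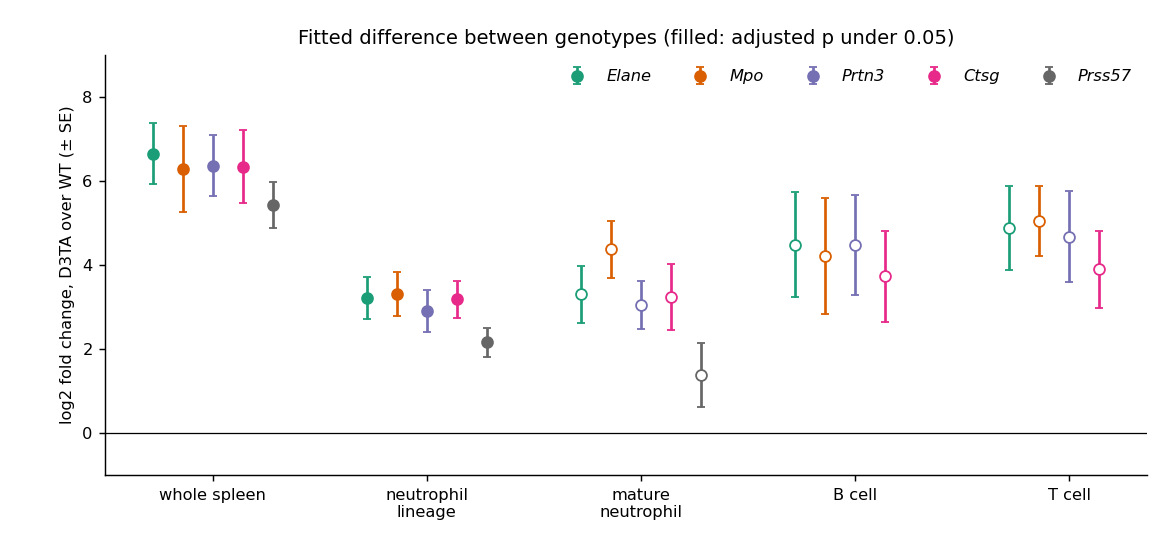
Log2 difference between D3TA and WT (vertical axis) of each of the 5 genes with its SE, by edgeR in the whole spleen, the neutrophil lineage and 3 classes of cells, filled where the adjusted p is under 0.05. Points that rest on 3 or fewer WT UMIs are left out, and monocyte-like cells, where this held for most genes, are not drawn. The whole spleen and the lineage are filled for all 5 genes, and the mature neutrophil-, B- and T-cell-like points are open.

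The lists of genes that process, store and inhibit these enzymes had median differences in the whole spleen between 0.13 and 0.36 on the log2 scale, beside 6.34 for the 5 enzymes and -0.0031 for all genes tested. Of 11 genes of zymogen processing and granule packing, 3 rose and 0 fell by edgeR (median log2 difference 0.34), where 5.7% of all genes were called higher and 0.382% lower. They were Cd63, the granule membrane tetraspanin (10.0 and 10.7 CPM in WT, 164 and 94.7 in D3TA, log2 difference 3.75, adjusted p = 0.0109), and the secretion genes Rab27a (1.65, adjusted p = 0.0196) and Stxbp2 (0.89, adjusted p = 0.0457). Of 6 tested inhibitors of the proteases, 0 were called in either direction by edgeR (median 0.36), and Serpinb1a, which blocks elastase and cathepsin G, stood at 94.03 and 86.98 CPM in WT and 265 and 155.5 in D3TA (edgeR adjusted p = 0.0946). Of 17 other contents of azurophil granules, 2 rose, lysozyme Lyz2 by 3.30 on the log2 scale (edgeR adjusted p = 0.0219) and the sulfatase Arsb by 0.88 (adjusted p = 0.043), with a median of 0.13. Of 9 genes for protein folding and heme supply to myeloperoxidase, 1 rose, Alas1, the first enzyme of heme synthesis (9.56 and 10.3 CPM in WT, 61.0 and 49.3 in D3TA, log2 difference 2.57, edgeR adjusted p = 0.00842), with a list median of 0.22.

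Of 11 transcription factors listed with the primary granule genes, 4 rose and 0 fell by edgeR (median 1.37). Of all genes tested 5.7% were called higher and 0.382% lower, and the same shares stand beside the next 2 lists. The list also holds Klf4 and Irf8, which were higher in monocyte-like than in precursor-like cells of D3TA. Klf4 stood at 219 and 250 against 4.08 and 4.46 CPM, and Irf8 at 258 and 331 against 43.4 and 46.1 CPM. Cebpe, which drives the step from promyelocyte to myelocyte, stood at 1.53 and 2.60 CPM in WT and 152 and 81.5 in D3TA (log2 difference 5.93, adjusted p = 0.00875). Cebpd rose by 3.68 (adjusted p = 0.0144), Gfi1 by 2.02 (adjusted p = 0.0151) and Klf4 by 1.48 (adjusted p = 0.0445). All 8 specific granule genes, which are made at the stage after the azurophil genes, rose by edgeR (median 5.76), among them Ltf, lactoferrin (6.13, adjusted p = 0.00842), and Cd177 (6.02, adjusted p = 0.00566). Of 7 tested granule proteases of other cells, 3 rose and 1 fell: the basophil proteases Mcpt8 (5.47, edgeR adjusted p = 0.0148) and Prss34 (7.30, adjusted p = 0.0419) and the lymphocyte granzyme Gzmm (1.54, adjusted p = 0.0245) rose, and Gzma fell by 1.12 (adjusted p = 0.039).

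Within the neutrophil lineage the lists showed another picture. Of 8 specific granule genes 0 were called by edgeR (median 1.87, beside 3.18 for the 5 enzymes and 0.044 for all genes tested), where 4.57% of all genes were called higher and 7.51% lower, while all 5 azurophil enzymes rose; the 2 lists were not tested against each other. Among the 11 transcription factors, Myb, a factor of progenitors, rose by 2.26 (edgeR adjusted p = 0.0238) and Gfi1 by 2.13 (adjusted p = 0.0225), and Irf8 fell by 2.70 (adjusted p = 0.0164). Alas1 rose by 1.64 (edgeR adjusted p = 0.0318) as 1 of 9 in its list. Of 17 other azurophil contents the lysosomal enzymes Arsb (1.47, edgeR adjusted p = 0.032) and Galns (1.69, adjusted p = 0.0387) rose and Ctsa fell by 1.31 (adjusted p = 0.0358). In the zymogen list 0 of 11 and in the inhibitor list 0 of 4 were called.

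In monocyte-like cells 6 of 8 specific granule genes rose by edgeR (median 3.51, beside 0.022 for all genes tested), where 9.47% of all genes were called higher and 6.77% lower. Transcripts of later neutrophil stages thus also rose in this class. The same list had a median difference of 4.525 in B-cell-like and 4.977 in T-cell-like cells, with 0 of 8 called in each. A higher level in D3TA was therefore not particular to monocyte-like cells. Camp, cathelicidin, stood at 15.5 and 8.41 CPM in WT and at 1214 and 1015 CPM in D3TA, and its part in the difference was not tested. Ctsc, the protease that activates the zymogens of the neutrophil serine proteases, stood at 366 and 345 CPM in WT and 1050 and 657 CPM in D3TA (log2 difference 1.30, edgeR adjusted p = 0.0182). Cebpe rose by 4.86 (edgeR adjusted p = 0.00137) and Myb by 2.06 (adjusted p = 0.0279). Serpinb1a rose by 1.21 (edgeR adjusted p = 0.0241), and Serpinb6a fell by 1.12 (adjusted p = 0.0416).

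Several genes of these lists were highest where the 5 enzymes were. Across 12 classes, 4 of 9 folding and heme genes were highest in precursor-like cells in both D3TA libraries: Calr (916 and 1090 CPM), Pdia3 (560 and 485), Pdia6 (484 and 351) and Alas1 (269 and 303). Of the 11 transcription factors Myb (190 and 307 CPM) and Gfi1 (66.9 and 102 CPM) were highest there, and of the 11 inhibitors Serpinb1a (847 and 596 CPM). Of the zymogen, other azurophil and specific granule lists, 0 of 11, 0 of 17 and 0 of 8 were, and of 12 granule proteases of other cells 1 was, Cfd (1.31 and 1.24 CPM). Ctsc stood at 41.4 and 23.5 CPM in precursor-like cells and was far higher in monocyte-like cells.

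The genes whose pattern over 43 class and library sums was most like that of the 5 enzymes, among 6053 eligible, were Ms4a3 (Pearson r = 0.961), Lbp (0.891), 1700020L24Rik (0.887), Fcnb (0.885), Dmkn (0.854), Camp (0.8495), Ncam1 (0.849) and Cldn15 (0.848). These values are descriptions, since the points share 4 libraries and the precursor-like sums carry much weight. Ms4a3, Fcnb and Camp were also markers used to name the classes.

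Of 38 protein-coding genes within 100 kb of the 5 genes, 24 were tested in the whole spleen and 7 rose by edgeR (median log2 difference 0.51), where 5.7% of all genes tested were called higher. They were Plppr3, which overlaps Prtn3 on the other strand (2.99, adjusted p = 0.0142), Palm, 2.6 kb from Prss57 (2.48, adjusted p = 0.0129), Arid3a, R3hdm4 and Gzmm on chromosome 10, Tspoap1, 7.7 kb from Mpo (1.36, adjusted p = 0.0457), and Mcpt8 near Ctsg. Whether the counts used strand is not given in the sources used here. By RefSeq Prtn3 starts at chr10:79879667, inside its GENCODE gene record. In the GENCODE annotation the gene records of Plppr3 and Prtn3 overlap only at chr10:79874476-79874634, at the 5′ end of each record. Reads of that stretch alone may therefore not be told apart. Cfd, 2.6 kb from Elane, stood at 0 in both WT libraries and at 0.088 and 0.0579 CPM in D3TA, under the level for a test. In the neutrophil lineage 0 of 21 tested neighbours were called by edgeR, where 4.57% of all genes were called higher and 7.51% lower.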

How the data were processed

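Spleen cells of 4 mice (2 WT, 2 D3TA; 1 library each) were profiled by 10x 3′ single-cell RNA sequencing, with 10000 cells aimed for per sample per the labels. The authors deposited UMI counts per gene and barcode, from Cell Ranger (version 7.0.1, per the file headers), on mm10 per the submitters' processing notes. The annotation release is not given in the sources used here. The 64410 deposited barcodes were kept from 500 UMIs, 250 genes and up to 10% mitochondrial UMIs (53945 left), and 1615 doublets called by Scrublet (6% expected; 1.47% to 5.66% per library) were removed. The doublet threshold of WT replicate 1 was the mean of those of the other libraries, chosen after the data were seen. Counts scaled to 10000 per cell, 2000 variable genes without the 5 enzymes, 30 principal components, 15 neighbours and Leiden resolution 1 (scanpy 1.11.5, leidenalg 0.10.2) gave 56 clusters. Of these 12 took no name from the 154 markers; 4 of the 12 were counted in the neutrophil lineage, by a rule chosen after seeing the data.

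For each class the raw counts of a library's cells were added up, and edgeR 4.0.16 compared the sums (R 4.3.3; filterByExpr, TMM, glmQLFit and glmQLFTest, two-sided, Benjamini-Hochberg over all genes tested, adjusted p under 0.05), where each library had 20 cells of the class. DESeq2 1.42.0, other normalization, filters, clustering, cell filters, a replicate block and leaving out each library were alternatives. The edgeR p-values set the difference between genotypes against the spread between 2 mice a group, which the fit estimates in part from all genes. Single values were tested with exact permutations (scipy 1.17.1). The edgeR fit was tried on counts simulated from these data. The members and lists were chosen with earlier results of these data known. Genes named are the 5 enzymes, at most 4 per list and fit (called genes of smallest p, otherwise highest mean CPM), protein-coding genes within 100 kb and the 8 genes most correlated with the mean log2(CPM + 1) of the 5 over sums of at least 50 cells. Other genes named mark classes or stages and were chosen after their values were seen. CPM is computed here from the deposited counts. The sequences are from RefSeq.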

Additional observations from a re-analysis of the deposited data

Results flagged for a closer look

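Barcodes left out by the cell filter, which enter no comparison above, also held UMIs of the 5 genes. In the 2794 such barcodes of D3TA replicate 1 the 5 genes summed to 558.7 CPM, and in the 2449 of D3TA replicate 2 to 488.3 CPM. The level was above that of the WT libraries, which held 62.7 CPM in 3210 barcodes of replicate 1 and 0.407 CPM in 2012 of replicate 2. Mpo led in these D3TA barcodes at 225 and 244 CPM, against 123 and 108 CPM for Elane, whereas in precursor-like cells Elane led.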

How the results depend on the processing

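In the whole spleen, 5 of the 5 genes were called under all alternatives but 2: all barcodes (4, Mpo adjusted p = 0.054 by edgeR) and leaving out 1 library (4 to 5, the 4 without D3TA replicate 1). In monocyte-like cells leaving out 1 library gave 4 to 5, and the stricter cell filter and Leiden resolution 0.5 each gave 4. In the neutrophil lineage, leaving out 1 library gave 0 to 5, keeping doublets 3, Leiden resolution 0.5 gave 2 and clustering with the 5 genes 2; the cause was not tested. In mature neutrophil-like cells, where 0 were called, DESeq2 gave 4, no filter on low counts 4, leaving out 1 library 0 to 4 (4 without WT replicate 2 or D3TA replicate 2, 3 without D3TA replicate 1) and clustering with the 5 genes 2. Under the stricter cell filter, with other cells in the class, 4 log2 differences reversed there: Elane to -1.545, Mpo to -0.84, Prtn3 to -1.53 and Ctsg to -1.39. In B-cell-like cells DESeq2 called 2 and leaving out 1 library 0 to 4 (4 without WT replicate 1, 3 without WT replicate 2). In T-cell-like cells DESeq2 called 2, no filter on low counts 5, the stricter cell filter 3 and leaving out 1 library 0 to 4 (4 without either WT library). The difference in the share of cells with at least 10 UMIs ranged from 1.87 to 4.66 points when 1 library was left out, and was 6.02 at 5 UMIs and 2.66 at 20.

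The sources used here do not say that replicate numbers pair the mice. Deviations of same-numbered libraries correlated at -0.083 in the whole spleen, -0.034 in the lineage, 0.062 in monocyte-like and -0.107, -0.202 and -0.212 in mature neutrophil-, B- and T-cell-like cells. With 2 libraries a group, these correlations cannot decide whether mice were paired. The replicate block changed no call of the 5 genes (5 in the whole spleen, 5 in the lineage, 5 in monocyte-like cells, 0 elsewhere). A crossed pairing, chosen after seeing the data, called 4 in mature neutrophil-like, 5 in B-cell-like and 0 in T-cell-like cells.

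Counts of all genes called (1046 higher and 70 lower in the whole spleen) became 1853 and 593 with DESeq2, 3264 and 2270 without D3TA replicate 2, 412 and 23 without WT replicate 1 and 232 and 7 without WT replicate 2. In the lineage (588 and 965) they became 1579 and 1502 with no filter and 2617 and 2285 without WT replicate 2. In monocyte-like cells (913 and 653) they became 559 and 283 without WT replicate 1 and 519 and 364 without WT replicate 2 and 604 and 349 without D3TA replicate 1. Where 0 were called, DESeq2 gave 113 and 237 in mature neutrophil-like, 79 and 5 in B-cell-like and 36 and 4 in T-cell-like cells, and no filter gave 261 and 524 in mature neutrophil-like and 274 and 242 in T-cell-like cells. The stricter cell filter gave 53 and 237, Leiden resolution 2 gave 28 and 112 and clustering with the 5 genes 2 and 0 in mature neutrophil-like cells, and the stricter filter 13 and 0 in T-cell-like cells. In mature neutrophil-like cells, 1038 and 1388 were called without WT replicate 2, 15 and 21 without D3TA replicate 1 and 136 and 262 without D3TA replicate 2. Leaving out WT replicate 1 gave 28 and 1 in B-cell-like and 28 and 3 in T-cell-like cells. Leaving out WT replicate 2 gave 181 and 0 in B-cell-like and 223 and 228 in T-cell-like cells, and leaving out D3TA replicate 2 gave 463 and 370 in B-cell-like cells. Depth limits WT monocyte-like cells, of which the 284 of replicate 1 had a median of 1510 UMIs.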

Other observations

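Macrophage-like cells held 2.68 and 0 CPM of the 5 genes together in WT and 297 and 394 CPM in D3TA, where 2 cells held 241 of 466 UMIs in replicate 1 and 1 cell held 90 of 184 in replicate 2. Cells of the class named natural killer cell-like held 1.66 and 0 CPM in WT and 84.0 and 76.9 CPM in D3TA. Most D3TA cells of this class (459 and 599) lay in cluster 10, which scored nearly as high for T-cell markers (1.58 beside 1.76). Cluster 10 held 326.8 CPM of the T-cell marker Cd3e. Cluster 20, at 11.1 CPM of Cd3e, had 3 and 57 D3TA cells. The D3TA values of the class may therefore be largely those of T cells. In erythroid-like cells the sum was 5.83 and 1.98 CPM in WT and 260.5 and 28.5 CPM in D3TA, and 1 cell of D3TA replicate 1 held 1658 of the 2075 UMIs there.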
